A study of Mus musculus with 4 samples.

Results

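The windows around 5 transcription factor genes, Cdx2, Eomes, Gata4, Gata6 and Sox17, held 16 of the 50231 merged accessible regions of the series. All lay in 4 of the 5 windows, and the Gata6 window held none. The members are the ATAC-seq peaks whose midpoint fell within fixed mm9 windows: Cdx2, chromosome 5 at 148.06 to 148.17 Mb; Eomes, chromosome 9 at 118.34 to 118.45 Mb; Gata4, chromosome 14 at 63.76 to 63.94 Mb; Gata6, chromosome 18 at 11.00 to 11.13 Mb; and Sox17, chromosome 1 at 4.44 to 4.54 Mb. Peaks of the 4 libraries were merged wherever they shared 1 bp or more, and the merged regions were numbered along each window. ATAC-seq maps open chromatin by the insertion of adapters with the Tn5 transposase. The cells were J1 mouse embryonic stem cells, a single line of 129SV origin, grown without feeders on gelatin in 15% serum and 1000 units/mL leukemia inhibitory factor. The DR+/+ population (MERVL+/Zscan4c+) and the DR-/- population (MERVL-/Zscan4c-) had 2 libraries each. MERVL is an endogenous retrovirus active in the early embryo and Zscan4c is a gene of zygotic genome activation, and cells positive for both are likened to the 2-cell embryo. Whether replicates came from separate cultures is not stated, and their spread may be technical.

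The 5 genes direct the first lineage decisions outside the pluripotent epiblast. Cdx2, a homeodomain factor, and Eomes, a T-box factor, specify the trophectoderm, from which the placenta forms, and Eomes acts again when mesoderm and endoderm arise. Gata6 and Gata4, zinc-finger factors, drive the primitive endoderm that lines the yolk sac, and Sox17, an HMG-box factor, is needed in primitive and definitive endoderm. In embryonic stem cells these genes are mostly silent or expressed at a low level, and forced expression of several of them is known to convert the cells to extraembryonic fates. Cells of the 2-cell-like state are known for contributing to extraembryonic as well as embryonic tissue, and the comparison asked whether sites near these genes were called accessible in either population.

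The upstream sequences of 2 of the 5 genes, Cdx2 and Eomes, matched the RefSeq promoter table of the GRCm38.p6 build. They show the DNA upstream of the 2 trophectoderm factors, the 2 genes with an entry. Capitals mark matches on either strand to ATGCAAAT, the octamer bound by POU factors such as Oct4, to the common promoter box CCAAT, or to a sequence of the TATA-box type, TATATAA. A sequence of the type bound by GATA factors, AGATAA, was searched for as well, and neither stretch held a match. The last base is the base next to the start of the transcript. The Cdx2 stretch is chr5:147307250-147307499 on the minus strand, and the Eomes stretch is chr9:118477939-118478188 on the plus strand.
Cdx2: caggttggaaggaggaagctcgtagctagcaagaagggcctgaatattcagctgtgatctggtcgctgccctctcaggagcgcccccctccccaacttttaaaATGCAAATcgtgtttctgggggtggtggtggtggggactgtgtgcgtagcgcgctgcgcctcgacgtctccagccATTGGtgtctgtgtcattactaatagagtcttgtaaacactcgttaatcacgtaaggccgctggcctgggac
Eomes: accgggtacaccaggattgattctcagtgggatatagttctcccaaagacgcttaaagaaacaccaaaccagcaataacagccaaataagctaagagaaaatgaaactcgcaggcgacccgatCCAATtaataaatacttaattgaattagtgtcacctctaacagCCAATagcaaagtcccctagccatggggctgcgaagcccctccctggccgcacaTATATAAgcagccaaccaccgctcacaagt
The Cdx2 stretch held the octamer at bases -147 to -140 and a CCAAT box on the opposite strand at -72 to -68, counted from the start. The octamer occurred in 1.6% of the 32851 promoter entries over the same 250 bases. The Eomes stretch held CCAAT at -127 to -123 and at -84 to -80, and TATATAA at -30 to -24. CCAAT occurred in 33.8% of the entries, TATATAA in 3.04% and AGATAA in 9.99%, and no match overlapped another. The Cdx2 stretch had 13 CpG dinucleotides and 55.2% G+C, and the Eomes stretch had 8 and 46.4%, compared with medians of 6 and 52.4% over all entries. These are matches of letters in GRCm38. The peaks are on mm9 and were not placed on these stretches, so whether a peak covers either is not known here.

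The 4 lists held between 21630 and 40933 peaks, the longest being that of DR+/+ replicate 1, and 29 of these peaks lay in the windows. Read totals are not given, but the deposited fold enrichment and p-value of each peak returned a whole number of reads at its summit, with a median of 15 or 16 in each list. In the windows the summits held 10 to 34 reads, so most peaks rested on few reads. Of the 29 peaks, 20 ranked below the middle of their own list by q-value. A missing peak means that no enrichment passed the caller's cuts at that depth and not that the site was closed. The weakest q-value of each list lies just below 0.05, and any other cut is not given.

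Of the 16 regions, 7 were called in more than 1 library (43.8%, against 55.9% of all 50231 regions), and 4 were called in at least 1 library of each population (25%, against 45.5%). The regions called in every library numbered 3 (18.8%, against 24.7% of all regions), and all 3 lay in the Gata4 window. Another 3 regions, 1 each in the Eomes, Gata4 and Sox17 windows, were called in the DR+/+ pair alone, that is in both DR+/+ lists and no DR-/- list (18.8%, against 9.08% of all regions). No region was called in both DR-/- libraries alone (background 1.38%). A further 9 regions were called in exactly 1 library (56.2%, against 44.1%), and 1 region at Sox17 was called in DR-/- replicate 2 and DR+/+ replicate 1. With 16 regions these shares are a description, and no test per region was made, since an exact permutation test of 2 against 2 libraries cannot go below p = 0.333. When the 3 longer lists were trimmed by q-value to the 21630 peaks of the shortest, 11 regions were left in the windows. Of these, 0 were called in the DR+/+ pair alone and 1 in the DR-/- pair alone. The shares of all regions in these classes were not computed for the trimmed lists, so these counts have no background beside them.

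**Figure D1:**
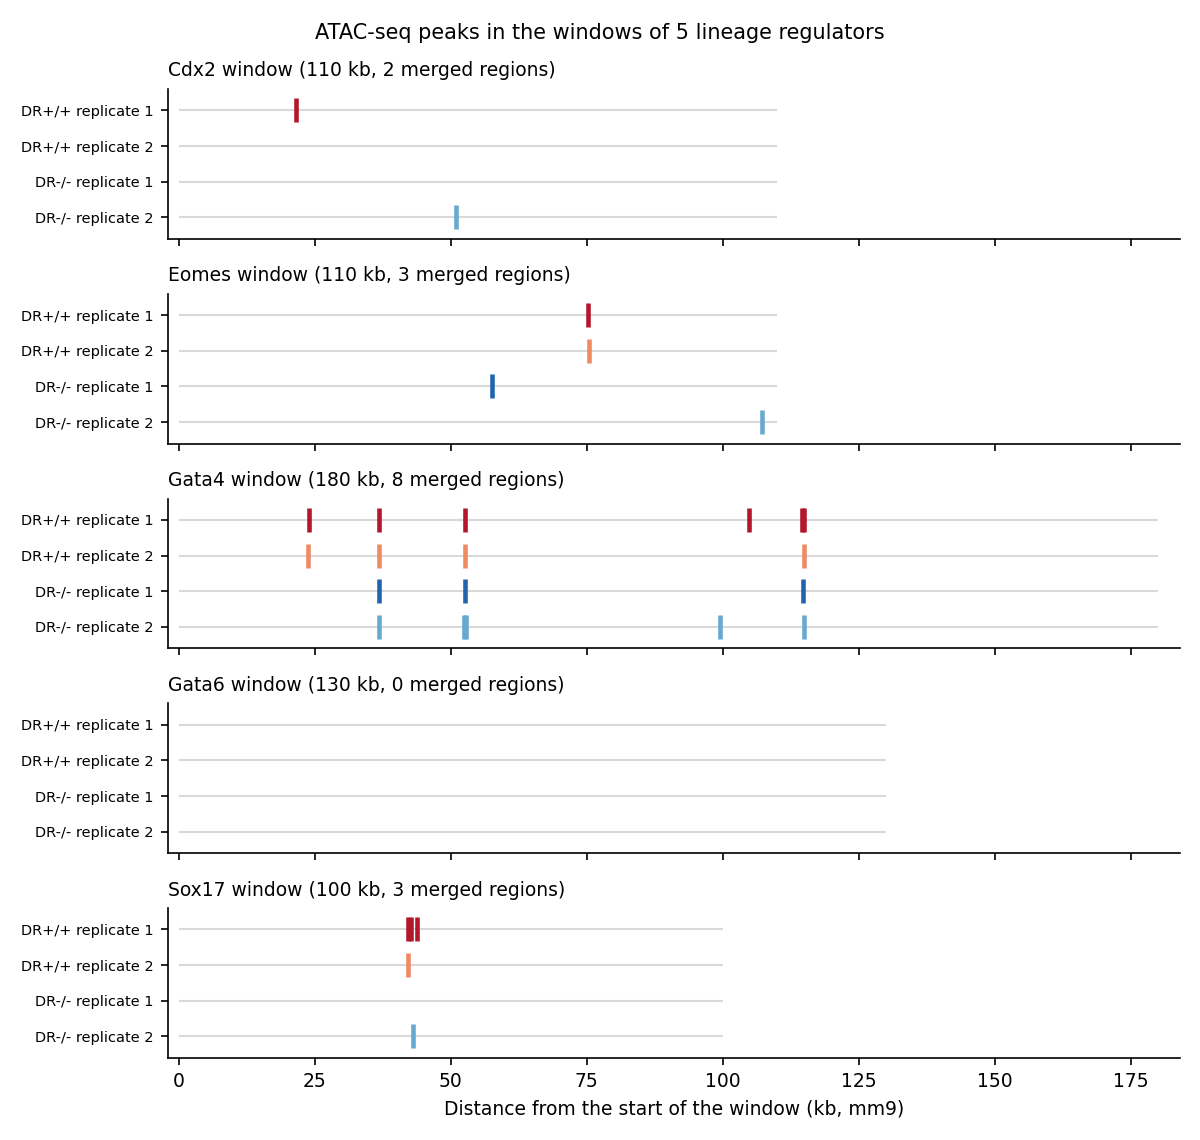
Peaks in the 5 windows, drawn to scale by distance from the window's start (kb), with 1 row per library and 1 tick per peak. Ticks align in all 4 libraries at 3 places of the Gata4 window, and in both DR+/+ rows alone at 1 place each of the Eomes and Gata4 windows. The Sox17 peaks lie within 1.77 kb, too close for their regions to be told apart at this scale. The Gata6 window is empty.

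The number of peaks in the windows did not separate the populations. The DR+/+ libraries had 11 (replicate 1) and 6 (replicate 2) peaks, and the DR-/- libraries 4 (replicate 1) and 8 (replicate 2). The means were 8.5 ± 3.54 in DR+/+ and 6 ± 2.83 in DR-/- (SD, n = 2 each), and the groups overlapped. The difference of 2.5 peaks gave p = 0.667 in an exact two-sided permutation test, whose smallest possible p with 2 against 2 libraries is 0.333. Per 10000 peaks of the list, the windows held 2.69 and 2.23 peaks in the DR+/+ libraries and 1.85 and 3.27 in the DR-/- libraries, in the order of the replicates. On that scale the sign of the difference turned, to -0.102 (exact permutation test, p = 1). Without DR+/+ replicate 1 the difference in the number of peaks was 0. By window, the same exact permutation test gave p of 0.667 for Gata4 and Sox17 and 1 for Cdx2 and Eomes (adjusted p = 1 for each of the 4), and the empty Gata6 window was not tested.

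**Figure D2:**
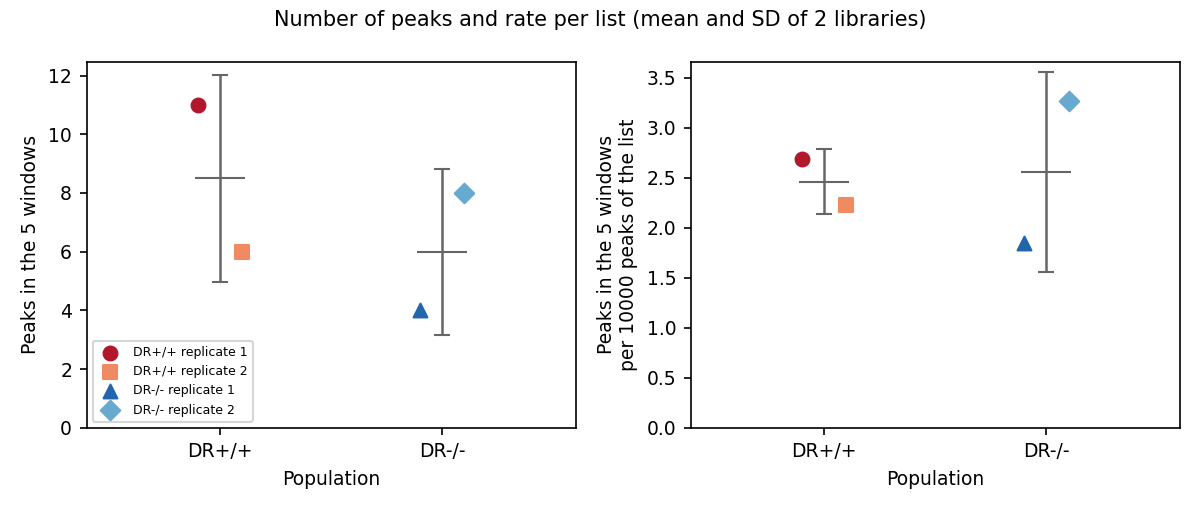
Number of peaks in the 5 windows (left) and that number per 10000 peaks of the library's list (right), with 1 point per library and the mean and SD of each population. DR-/- replicate 2, with 8 peaks, lies between the DR+/+ libraries at 11 and 6 on the left and is the highest of the 4 on the right, at 3.27.

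Of the 5 regions in the windows of the trophectoderm genes, 0 were called in both populations, against 45.5% of all regions, a count too small to set them apart. With the windows widened by 50 kb on each side, 1 region called in all 4 libraries was included at Eomes. In the Cdx2 window 2 regions were called, each in a single library of a different population. Cdx2 region 1, at 148081565 to 148081754, was found in DR+/+ replicate 1 alone, with 14 reads at the summit and a 5.59-fold enrichment over local background. It ranked above 56.7% of that list, and peaks in the same decile of that list were called in no other library in 30.4% of cases. Cdx2 region 2, at 148110837 to 148110969, was found in DR-/- replicate 2 alone, with 10 reads, 3.48-fold enrichment and a rank among the weakest 0.72% of the list. The 2 regions lay 29.1 kb apart. No peak fell in the Cdx2 window in DR+/+ replicate 2 or DR-/- replicate 1, whose peak-free stretches around it measured 534 and 520 kb. The usual length of gaps within a single list was not computed. In GRCm38 the protein-coding neighbours of Cdx2 are Pdx1, a homeobox gene of the pancreas, and Urad. The files name no genes, and no region was assigned to Cdx2 or to a neighbour.

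Each library had 1 peak in the Eomes window, at 3 different places. The DR+/+ libraries shared theirs, and each DR-/- library had its own. Eomes region 2, at 118415245 to 118415387, was 135 bp wide with 10 reads at the summit in DR+/+ replicate 1 and 115 bp wide with 11 reads in replicate 2. A width of 115 bp is the smallest in the list of DR+/+ replicate 2. The summits lay 29 bp apart, against a median of 44 bp (interquartile range 17 to 86) over the 4560 regions called in the DR+/+ pair alone. Both peaks were weak, with q-value percentiles of 10.7 and 16.2 in their lists, against medians of 44.6 and 33.5 for peaks of that class. Neither peak was among the 21630 strongest of its list. The protein-coding gene after Eomes in GRCm38 is Golga4, which encodes a Golgi protein.

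The peaks seen in a single DR-/- library at Eomes ranked higher within their lists than the pair of DR+/+ peaks did within theirs. Eomes region 1, at 118397497 to 118397651, had 18 reads at the summit and 5.71-fold enrichment in DR-/- replicate 1, where it ranked above 71.0% of the list. Of the peaks in that decile of the list, 91.9% had a counterpart in DR-/- replicate 2, and 96.0% and 88.6% in the first and second DR+/+ replicates, and 1.44% were in no other list. Eomes region 3, at 118447187 to 118447308, had 16 reads and 5.25-fold enrichment in DR-/- replicate 2, above 55.6% of its list. Of the peaks in that decile, 8.49% were in no other list. The region lay 2.75 kb inside the window's end.

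No peak of any library fell in the 130 kb window around Gata6, whose product is required to form the primitive endoderm. The nearest merged regions lay 114 kb before the window, called in DR-/- replicate 2 alone, and 125 kb after it, called in DR-/- replicate 2 and DR+/+ replicate 2. The stretch without a region was 369 kb long. Within single lists it was 542 and 373 kb for the DR+/+ replicates and 763 and 369 kb for the DR-/- replicates. A single list holds fewer peaks than the merged lists, and no background of its gaps was computed. Over chromosomes 1 to 19 and X the median gap between neighbouring merged regions was 25.4 kb. Of 49585 gaps, 485 (0.978%) were at least as long as the 369 kb stretch. Such gaps made up 9.95% of the length covered, and 19.7% of all 130 kb tiles held no region. In GRCm38 the antisense gene Gata6os overlaps Gata6, and the nearest protein-coding genes are Mib1 and Rbbp8.

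The Gata4 window held 8 of the 16 regions and was the only one with sites called in every library. It was also the longest, at 180 kb, and 9.32% of genomic tiles of that length held as many regions or more (median 3). The DR+/+ replicates had 6 and 4 peaks here and the DR-/- replicates 3 and 5, so the groups overlapped.

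Gata4 region 2, at 63796558 to 63797065, was the strongest site of all 5 windows. Its summit held 29 and 26 reads in the DR+/+ replicates and 34 and 30 reads in the DR-/- replicates. The deposited fold enrichment was 7.46 and 7.48 in the DR+/+ libraries and 11.4 and 8.29 in the DR-/- libraries. It ranked above 92.6% and 92.9% of the DR+/+ lists and above 99.1% and 96.3% of the DR-/- lists. These are values within lists of different length and give no test of a change. The peak was 414 and 490 bp wide in the DR+/+ replicates and 291 and 358 bp wide in the DR-/- replicates, so both DR+/+ peaks were the wider ones. The same held for 38.6% of the 12412 regions called in all 4 libraries, and the reverse for 5.66%; of the 3 Gata4 regions, 1 was wider and 0 were narrower in this sense. The ratio of mean widths, 452 to 324 bp, was 1.39, against a median ratio of 1.17 over those regions. The 4 summits fell within 93 bp (median over regions called in all libraries 80 bp, interquartile range 47 to 138).

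The other regions called at Gata4 in all 4 libraries were weak. Gata4 region 4, at 63812528 to 63812805, had summits of 11 and 13 reads in the DR+/+ replicates and of 16 and 11 reads in the DR-/- replicates. Its widths of 205 and 149 bp in DR+/+ and 181 and 137 bp in DR-/- overlapped between populations. It ranked above 64.0% of the list of DR-/- replicate 1 and at the 21.2 percentile or lower in the other 3. Gata4 region 8, at 63874732 to 63875102, had 10 and 12 reads in DR+/+ and 10 and 13 in DR-/-, and its widths were 134 and 115 bp in DR+/+ against 104 and 353 bp in DR-/-. The widths of 115 and 104 bp are the smallest in the lists of DR+/+ replicate 2 and DR-/- replicate 1. The summits of region 8 spread over 163 bp, and 80.9% of the regions called in every library had an equal or smaller spread.

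Among the 21630 strongest peaks of each list, region 2 alone was still present in all 4 libraries. Region 4 was then present in DR+/+ replicate 2 and DR-/- replicate 1, and region 8 in the DR-/- libraries alone. The list of DR-/- replicate 1 is the shortest and loses no peak at this cut. It kept region 8 at the 5.88 percentile, whereas DR+/+ replicate 2 lost it at the 17.8 percentile. In the stronger 50% of each list, region 8 was present in no library and region 4 in DR-/- replicate 1 alone. When a library's peaks had to cover at least 50% of the merged region, region 2 was again the only one counted in all 4. In GRCm38 the protein-coding neighbours of Gata4 are Neil2, a DNA repair glycosylase gene, and Blk, a kinase gene. Without mm9 gene positions the 3 regions were not assigned to Gata4 or to a neighbour.

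**Figure D3:**
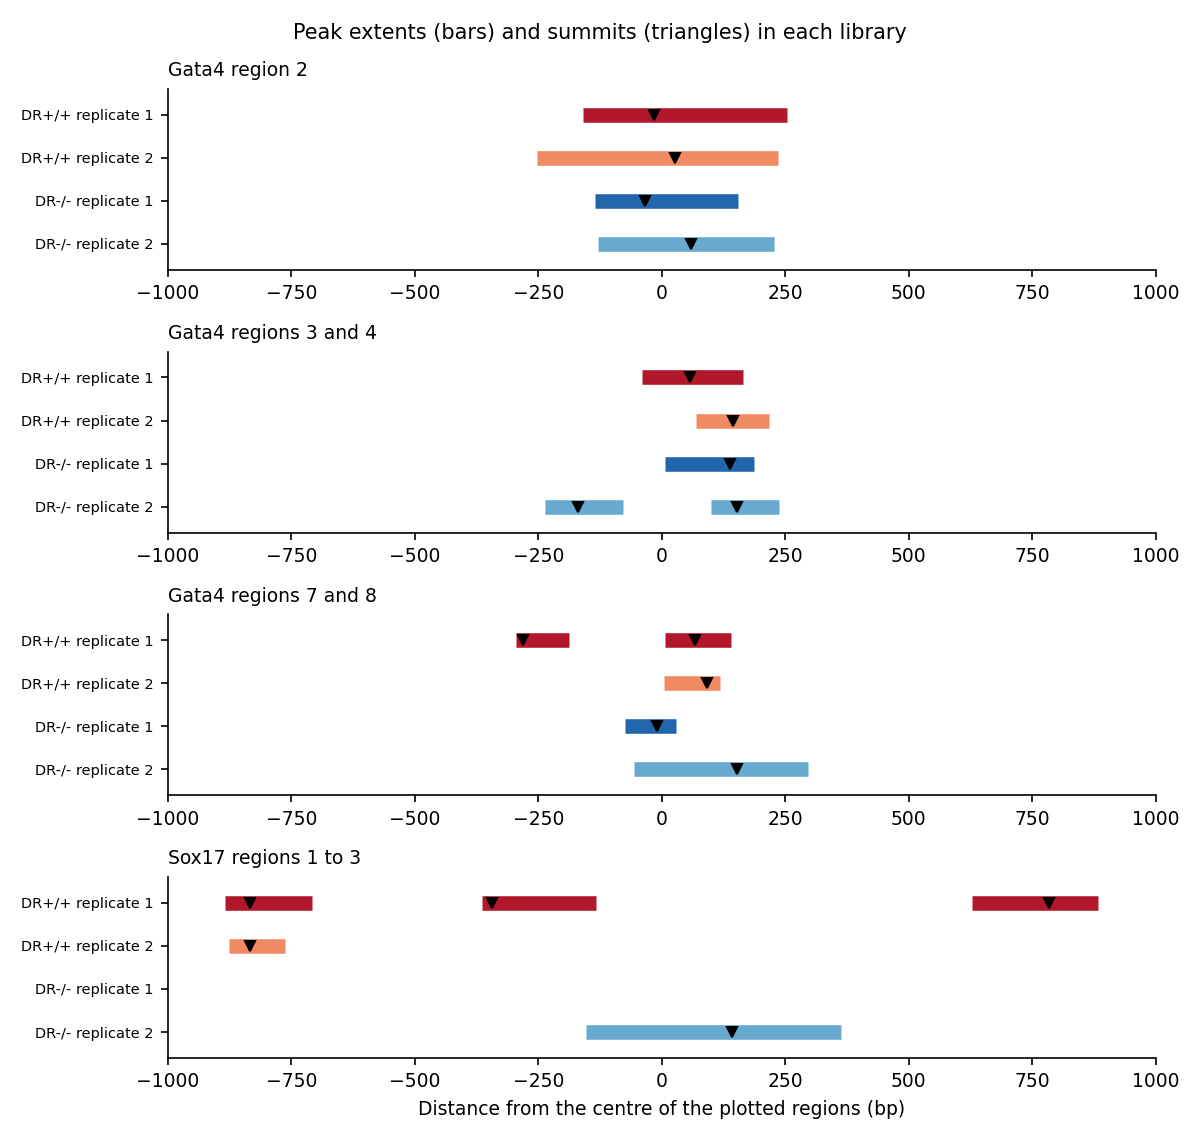
Extent (bars) and summit (triangles) of each peak at 4 places, by distance in bp from the centre of the regions plotted. At Gata4 region 2 the DR+/+ bars are the longer ones, at 414 and 490 bp against 291 and 358 bp, and at Sox17 region 1 the 2 DR+/+ summits lie 1 bp apart.

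The remaining Gata4 regions were called in a single population. Over the whole series 45.5% of regions were called in both populations, so regions of a single population are the larger part. Gata4 region 1, at 63783773 to 63783955, was found in both DR+/+ libraries, 163 and 152 bp wide with 10 and 13 reads at the summit. Its q-value percentiles were 2.47 and 24.3, and its summits lay 42 bp apart. Gata4 regions 3 and 5 were found in DR-/- replicate 2 alone, with 15 and 12 reads, and regions 6 and 7 in DR+/+ replicate 1 alone, with 13 and 10 reads. Regions 3 and 7 lay 36 and 113 bp from a region called in every library, beside regions 4 and 8. They are therefore separate only under the rule that peaks must overlap to be merged.

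All 5 peaks in the Sox17 window lay within 1.77 kb, at 4482079 to 4483847, and formed 3 regions. DR+/+ replicate 1 had 3 of these peaks, DR+/+ replicate 2 and DR-/- replicate 2 had 1 each, and DR-/- replicate 1 had none. Sox17 region 1, at 4482079 to 4482255, was called in both DR+/+ libraries. Its peaks were 177 and 115 bp wide with 16 and 19 reads at summits 1 bp apart, and ranked at the 17.1 and 54.2 percentiles of their lists. The width of 115 bp is again the smallest in the list of DR+/+ replicate 2.

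The adjoining Sox17 regions crossed the populations or rested on 1 library. Sox17 region 2, at 4482600 to 4483325, joined a 230 bp peak of DR+/+ replicate 1 with a 516 bp peak of DR-/- replicate 2, the widest peak in any of the windows. These 2 peaks shared 20 bp, and their summits, with 15 and 17 reads, lay 486 bp apart. Sox17 region 3, at 4483592 to 4483847, was called in DR+/+ replicate 1 alone, with 18 reads. The gaps between the 3 regions were 344 and 266 bp. Merging over gaps of up to 500 bp therefore turned the cluster into 1 region present in every library but DR-/- replicate 1, and no region at Sox17 was then called in the DR+/+ pair alone.

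The Sox17 peaks stood on a higher local background than the other peaks of the windows. The background pileup behind them, recovered from the deposited fold and p-value, was 3.75, 3.83 and 4.05 for the 3 peaks of DR+/+ replicate 1. It was 3.48 for the peak of DR+/+ replicate 2 and 3.48 for that of DR-/- replicate 2. The medians over these lists were 2.33, 2.35 and 2.33 in the same order. Among the other 24 peaks of the windows it ranged from 1.66 to 3.02. The Sox17 peaks had 15 to 19 reads at the summit with only 3.31-fold to 4.46-fold enrichment, whereas Cdx2 region 1 reached 5.59-fold with 14 reads over a background of 1.68. No test was made of this difference, which was noticed in the values.

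Outside the windows, 2 of the 10 nearest regions were called in all 4 libraries, against 24.7% of all regions. A 923 bp region called in all 4 libraries lay 9.78 kb past the end of the Sox17 window, at 4549781 to 4550703. A 309 bp region called in all 4 libraries lay 24.4 kb before the Eomes window, at 118315275 to 118315583. The nearest regions around the Cdx2 window, 49.7 kb before and 50.5 kb after it, were each called in 1 library. Around the Gata4 window the nearest regions lay 18.5 kb before it, called in 3 libraries, and 60.8 kb after it, called in both DR+/+ libraries alone.

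**Figure D4:**
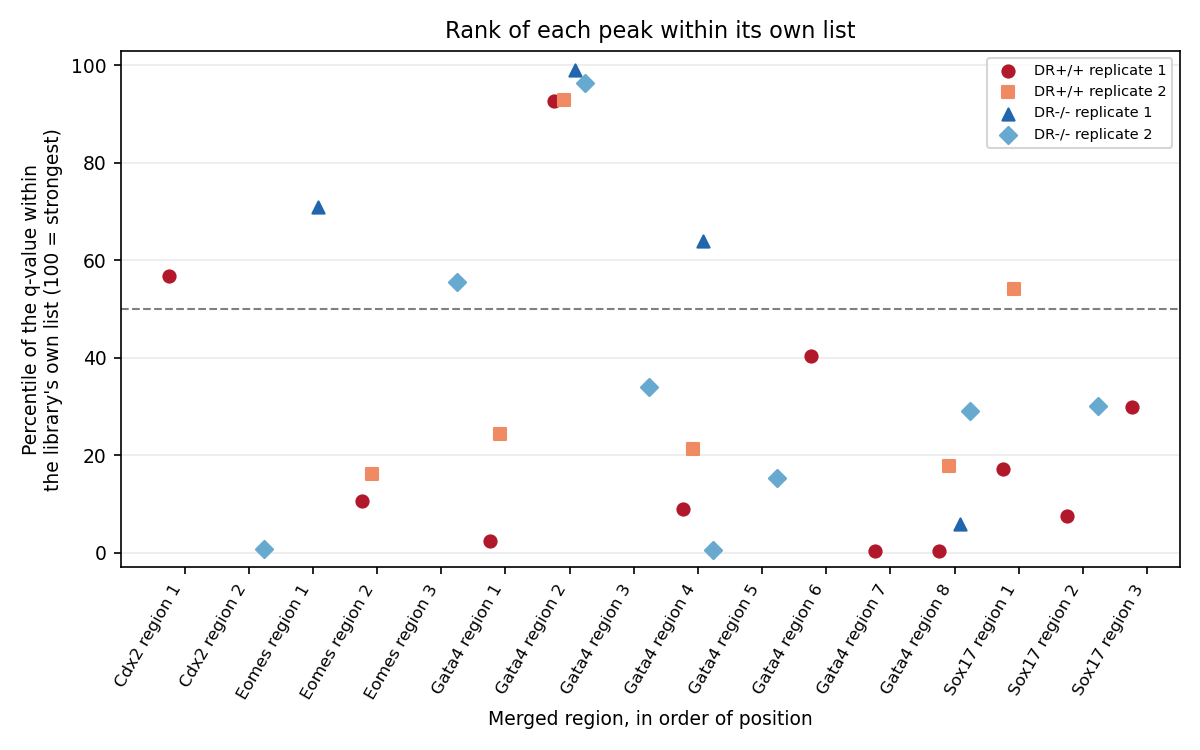
Percentile of each peak's q-value within its own library's list (100 is the strongest), for the 16 regions in order of position, with 1 symbol per library and a dashed line at the middle of the list. Gata4 region 2 is the only region whose peaks all lie above 90, and 20 of the 29 peaks lie below the line.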

How the data were processed

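ATAC-seq libraries of 2 cell populations, 2 replicates each, were grouped by their titles. The mm9 build is named with SAMtools 0.1.19, Bowtie2 2.3.0 and FastQC 0.10.1, per the submitters' processing notes. For the peak caller, its settings and the handling of duplicate and multiply mapped reads, the sources used here give nothing. Each deposited list is in narrowPeak layout for 1 library, unpooled. Per peak the authors deposited start, end and summit offset, and a score, a fold enrichment (ratio), and, on the −log10 scale, a p-value and a q-value, the latter's smallest value being 1.31 or 1.32. These values belong to their own list and were used to describe and rank peaks within it. The deposited score was not used.

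Peaks were assigned to windows by midpoint, and regions were merged over the whole genome with SciPy 1.17.1, NumPy 2.4.6 and pandas 2.3.3 under Python 3.11.15 (figures with Matplotlib 3.10.9). Summit and background pileups were solved from fold, taken as (pileup + 1)/(background + 1), and a Poisson p-value, within 0.001 of the deposited −log10 p-value for 100% of peaks. The merging was tested on 3000 simulated regions, of which 100% had the right class. These regions lay far apart and their peaks overlapped widely, so short gaps and small overlaps were not tried. Peak counts were compared by exact permutation tests with Benjamini-Hochberg adjustment over the 4 windows with peaks. Alternatives were lists of equal length, the stronger 50%, overlap with the window, merging over 500 bp, 50% coverage, windows widened by 50 kb, a replicate block and leaving out each library. The rate per 10000 peaks was added after seeing the data. Every region called in all libraries or in 1 population's pair is given in full, with the widest and the highest-ranked region of each window; the others that are given were added after their values were seen, as were the 4 motifs. The windows and members were chosen with earlier results of these data known. Neighbouring genes come from RefSeq for GRCm38.p6, used for gene order alone.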

Additional observations from a re-analysis of the deposited data

How the results depend on the processing

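The difference in the number of peaks between DR+/+ and DR-/- (2.5) turned to -2 with lists of equal length, to -0.5 in the stronger 50% of each list and to -0.102 per 10000 peaks. It stayed at 2.5 with overlap with the window and with widened windows, and lay between 0 and 5 with 1 library left out. The 500 bp merging and 50% coverage act on regions and cannot change a count of peaks, so the same 2.5 there tests nothing. A replicate block (labels exchanged only within a replicate number) leaves the difference unchanged by construction. It gave p = 1 in the exact permutation test, and the labels do not say that the numbers pair the samples. The block allows fewer exchanges of labels, so the smallest p it can reach is above the 0.333 of the permutation test without it. The 3 regions called in all libraries became 1 with equal lists, 1 in the stronger 50%, 1 with 50% coverage and 5 in widened windows, and stayed at 3 with any library left out. The 3 regions called in the DR+/+ pair alone became 0 with equal lists and 0 in the stronger 50%, 2 with 500 bp merging and 4 in widened windows, and numbered 3 to 7 with 1 library left out, 7 being the value without DR+/+ replicate 2. The count for the DR-/- pair alone, 0, became 1 with equal lists and lay between 0 and 4 with 1 library left out, 4 being the value without DR-/- replicate 1. Shorter lists hold fewer peaks, and a left-out library loosens the definitions by construction. The shares of all regions in these classes were not computed for the alternatives. Among counts per window and class, 22 of the 80 that started above 0 moved by over 1.5 times or fell to 0, and 8 of the 120 that started at 0 rose above it. Most peaks of the windows rested on 10 to 19 reads, which limits all presence calls.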
